A study of Homo sapiens with 6 samples.

Results

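Serum response factor (SRF), the transcription factors that partner it and their regulators form the group of 6 genes described here, taken by symbol from the 60676 gene identifiers in the count tables: SRF, MRTFA, MRTFB, MYOCD, FHL2 and SCAI. RNA sequencing measured their transcripts in HEK293A cells, which descend from the human embryonic kidney line HEK293 and were chosen for flat, adherent growth. One group of 3 libraries came from cells given the vehicle DMSO and the other group of 3 from cells given 20 nM VT01454, named only by this code, for 2 h. The series title names Hippo pathway regulation by phosphoinositides and their transfer proteins as the subject. The labels name 1 cell line and 1 dose and time, and they do not tell if each library had its own culture; the spread behind the p-values may therefore be technical.

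SRF is a MADS-box transcription factor that binds a DNA element called the CArG box and is found in nearly every cell type. It is partnered by 2 kinds of coactivator. One is the myocardin family (MYOCD, MRTFA and MRTFB), of which the MRTFs carry the response to the actin cytoskeleton. MRTFs bind monomeric actin, and when filaments assemble they are released and act with SRF in the nucleus on cytoskeletal genes. The ternary complex factors (ELK1, ELK3 and ELK4) carry the response to ERK and act with SRF on immediate early genes. MYOCD itself is known from cardiac and smooth muscle. SCAI binds MRTFs and represses them, and FHL2, a LIM-domain protein, is an SRF target whose product antagonises MRTF. SRF is also a target of its own protein.

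The promoters of SRF and FHL2 are shown because these genes rose with the compound, as given below, and because SRF and FHL2 are known targets of the factor that reads the CArG box. The box was searched on both strands, which read the same, as CC, then 6 bases that are each A or T, then GG, in the 250 bases before each annotated start (RefSeq, GRCh38.p14). It is in capitals in the sequences, which run 5′ to 3′ on the strand of the gene; SRF lies on the plus strand and FHL2 on the minus strand.
SRF, chr6:43171019-43171268: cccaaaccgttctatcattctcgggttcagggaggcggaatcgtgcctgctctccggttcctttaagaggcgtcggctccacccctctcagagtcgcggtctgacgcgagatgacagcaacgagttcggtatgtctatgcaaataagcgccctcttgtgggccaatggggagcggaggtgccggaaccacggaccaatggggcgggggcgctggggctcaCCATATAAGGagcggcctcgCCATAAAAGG
FHL2, upstream start, chr2:105438514-105438763: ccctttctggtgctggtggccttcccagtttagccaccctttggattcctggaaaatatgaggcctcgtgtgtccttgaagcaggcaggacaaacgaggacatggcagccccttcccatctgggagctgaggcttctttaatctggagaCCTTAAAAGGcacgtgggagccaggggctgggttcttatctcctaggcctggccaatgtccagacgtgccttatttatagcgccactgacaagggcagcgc
FHL2, downstream start, chr2:105399052-105399301: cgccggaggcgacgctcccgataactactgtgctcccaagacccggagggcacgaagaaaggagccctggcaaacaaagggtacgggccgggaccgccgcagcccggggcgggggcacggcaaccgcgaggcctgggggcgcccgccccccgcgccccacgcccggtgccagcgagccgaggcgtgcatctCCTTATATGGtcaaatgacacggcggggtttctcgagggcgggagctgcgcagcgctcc
Of the 2 windows listed for SRF, the downstream one holds no exact box and is not printed. In the upstream SRF window 2 boxes lie 10 bases apart. They are CCATATAAGG from 30 to 21 and CCATAAAAGG from 10 to 1 bases before the RefSeq start of that window. The SRF gene of GENCODE 29 begins further downstream, at 43171299. The FHL2 windows hold CCTTAAAAGG from 101 to 92 bases and CCTTATATGG from 59 to 50 bases before their starts. Of the 4 windows listed for FHL2, 3 hold a box, but the 2 windows at the upstream start overlap and share one box. An exact box was found in 407 of all 35116 windows (1.16%) and in 394 of the 27305 genes with a window (1.44%). No exact box was found in the 3 windows of MRTFA, the 4 of MRTFB or the single window of SCAI. A match describes these letters and shows no binding.

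In these cells 2 of the 5 tested genes were higher with the compound, where 1.27% of all 15577 tested genes were called higher, and none was lower, where 0.616% of all tested genes were called lower. SRF rose 1.503-fold and FHL2 rose 1.26-fold, while the coactivator genes MRTFA and MRTFB and the repressor gene SCAI did not pass the test (edgeR quasi-likelihood test, Benjamini-Hochberg adjusted p below 0.05 over all tested genes). Levels are in CPM, that is, counts per 1000000 counts of the TMM-adjusted library, and changes are compound minus vehicle on the log2 scale. Fewer cells that express a gene and less of its RNA per cell cannot be told apart in such bulk libraries.

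SRF (ENSG00000112658, chromosome 6, 43171299 to 43181507 on hg38) is the DNA-binding member. It stood at 133.9, 135.3 and 119.2 CPM in vehicle libraries 1, 2 and 3 and at 193.9, 193.5 and 196.1 CPM in compound libraries 1, 2 and 3. Every compound library lay above every vehicle library, as in 11.3% of all tested genes, and the compound libraries were nearly level. Means were 129.5 ± 8.90 and 194.5 ± 1.43 CPM (SD, n = 3 each), which is a log2 fold change of 0.59 ± 0.06 (SE, 95% interval 0.45 to 0.72, edgeR adjusted p = 0.000195). This change was larger than that of all but 2.08% of tested genes, and by p-value SRF ranked 33 of 15577. The call held when any single library was left out, with log2 fold changes of 0.53 to 0.62 and adjusted p up to 0.00631.

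FHL2 (ENSG00000115641, chromosome 2, 105357712 to 105438513) was at 37.2, 41.6 and 42.6 CPM in the vehicle libraries and at 52.6, 50.1 and 50.3 CPM in the compound libraries. The groups did not overlap, and the lowest vehicle value came from library 1. Means of 40.5 ± 2.84 and 51.02 ± 1.38 CPM (SD, n = 3 each) gave a log2 fold change of 0.33 ± 0.07 (SE, 95% interval 0.18 to 0.49, edgeR adjusted p = 0.0318). The call was lost without vehicle library 1 or without any single one of the compound libraries (highest adjusted p = 0.195), with log2 fold changes of 0.28 to 0.37 when any single library was left out. Its paralogues FHL1, a LIM-domain protein gene of striated muscle, and FHL3 stood at log2 fold changes of 0.072 ± 0.05 and -0.16 ± 0.08 (SE) and did not pass (adjusted p = 0.567 and 0.411). FHL5 had 0 counts in every library.

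**Figure D1:**
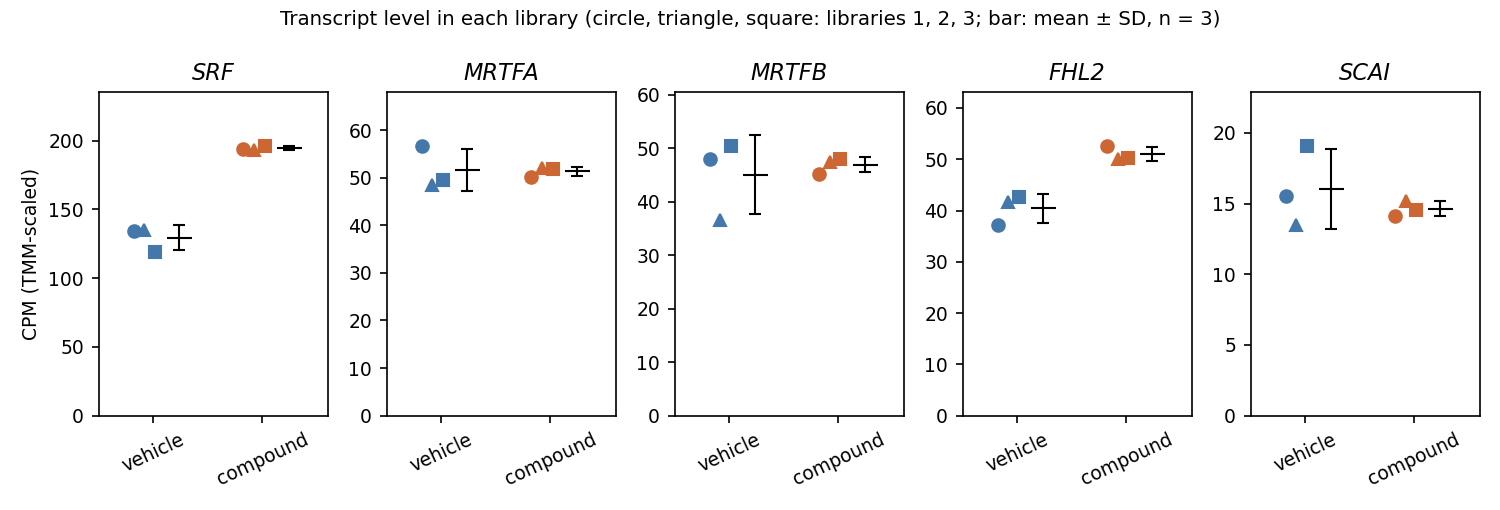
Transcript level of the 5 tested genes in each library, in CPM after TMM scaling on the vertical axis (from 0, a separate scale for each gene), for vehicle and compound; symbols mark libraries 1, 2 and 3, and the bar is the mean ± SD (n = 3). SRF lies at 119.2 to 135.3 CPM in vehicle and 193.5 to 196.1 CPM in compound, while MRTFA, MRTFB and SCAI overlap between the groups.

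The MRTF genes encode the actin-sensing coactivators. MRTFA (ENSG00000196588, chromosome 22, 40410281 to 40636702) was at 56.7, 48.5 and 49.5 CPM in the vehicle libraries and 50.2, 51.9 and 51.8 CPM in the compound libraries. The groups overlapped, with the highest value in vehicle library 1. The log2 fold change was -0.0073 ± 0.07 (SE, n = 3 each, edgeR adjusted p = 0.972), and its 95% interval of -0.16 to 0.15 ran from 0.892-fold to 1.11-fold. MRTFB (ENSG00000186260, chromosome 16, 14071321 to 14266773) was at 48.1, 36.7 and 50.5 CPM in the vehicle libraries and 45.3, 47.4 and 48.0 CPM in the compound libraries. Its vehicle values spanned the compound values on either side, vehicle library 2 being the lowest of all 6. The log2 fold change was 0.053 ± 0.10 (SE, 95% interval -0.16 to 0.27, edgeR adjusted p = 0.838). It turned to -0.072 without vehicle library 2, and that of MRTFA turned to 0.066 without vehicle library 1, in neither case past the threshold.

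MYOCD (ENSG00000141052, chromosome 17, 12665890 to 12768949), the muscle member of the family, was not abundant enough to test. It had 0, 0 and 0 counts in the vehicle libraries and 1, 3 and 0 in the compound libraries. Both groups lie at or under the limit that a count of 0 allows, which is 3 counts or 0.104 to 0.157 CPM per library as counting error only, so no fold is given. Of 8 muscle markers, MYH11, MYH6, MYH7 and TNNT2 had at most 3 counts in every library, and DES, ACTC1 and ACTA1 had group means of at most 0.864 CPM. SMTN, the smoothelin gene, stood at 18.8 CPM in vehicle and 19.7 CPM with the compound and made up most of the summed level of the 8, which was 19.4 to 19.7 CPM in vehicle and 20.6 to 21.1 CPM with the compound. The part of these genes in the results was not tested.

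SCAI (ENSG00000173611, chromosome 9, 124942608 to 125143506) encodes the repressor that binds MRTFs. It was at 15.6, 13.5 and 19.1 CPM in the vehicle libraries and 14.1, 15.2 and 14.6 CPM in the compound libraries. Vehicle library 3 was the highest and vehicle library 2 the lowest of all 6. The log2 fold change was -0.14 ± 0.12 (SE, n = 3 each, 95% interval -0.39 to 0.11, edgeR adjusted p = 0.612), and it turned to 0.0064 without vehicle library 3. SCAI shares 886 exonic bases with GOLGA1 on the same strand, and how reads in shared exons were counted is not given in the sources used here.

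**Figure D2:**
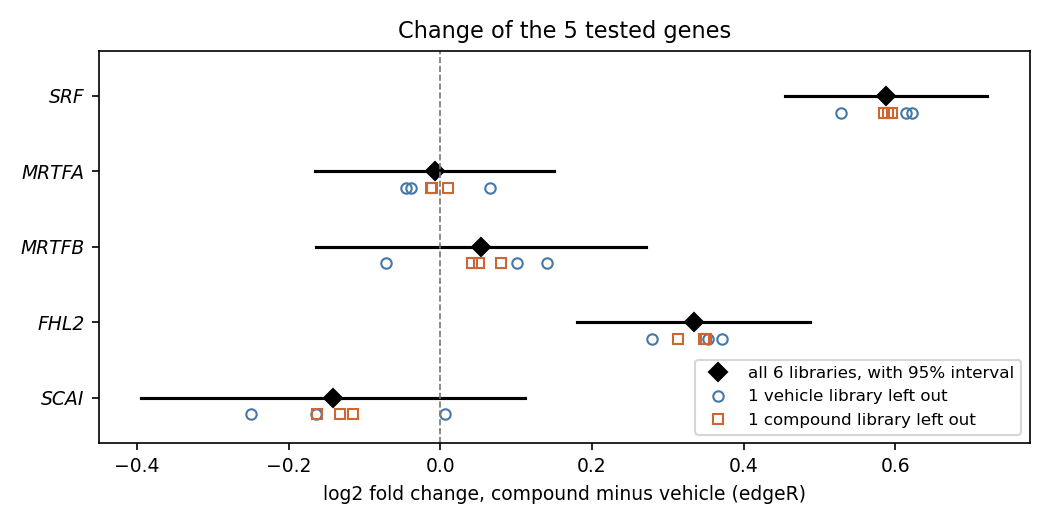
Log2 fold change of compound against vehicle for the 5 tested genes (horizontal axis), with the 95% interval of the edgeR fit on all 6 libraries as a line and the values with 1 library left out as open symbols below it. The intervals of SRF (0.45 to 0.72) and FHL2 (0.18 to 0.49) lie above 0, and those of MRTFA, MRTFB and SCAI include 0.

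The order of the levels was read per length, as CPM per kilobase of annotated exon. SRF was the most abundant in vehicle at 30.8 ± 2.12 CPM per kilobase (SD, n = 3), followed by MRTFA at 7.89 ± 0.678 and FHL2 at 6.11 ± 0.429. MRTFB stood at 2.72 ± 0.444 and SCAI at 1.23 ± 0.218 CPM per kilobase. With the compound SRF stood at 46.3 ± 0.340 CPM per kilobase, and FHL2 at 7.70 ± 0.208, a range that holds the MRTFA mean of 7.86 ± 0.146. The exon lengths pool all annotated transcripts, 16.6 kilobases for MRTFB against 4.20 for SRF, so the level of a gene with long alternative exons is understated.

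The ratio of SRF counts to those of another gene in the same library does not depend on library scaling. There were 2.36, 2.79 and 2.41 SRF counts per MRTFA count in the vehicle libraries and 3.86, 3.73 and 3.79 in the compound libraries. Against MRTFB the ratio was 2.79, 3.69 and 2.36 in vehicle and 4.28, 4.08 and 4.09 with the compound. These groups did not overlap for either coactivator: the ratio to MRTFA was 1.51-fold and that to MRTFB 1.43-fold higher with the compound. The ratio of SRF to SCAI was 1.63-fold higher and that of SRF to FHL2 1.19-fold higher, again with no overlap. All 4 ratios share the SRF counts, so they are not independent of each other or of the SRF rise. SRF alone separated the groups in CPM, as did 11.3% of all tested genes in the same direction. The share of all tested genes to which the SRF ratio would separate was not computed. Each of the 4 ratios had an exact two-sided permutation p = 0.1, which is the smallest that 3 against 3 libraries allow, and an adjusted p = 0.1 over the 4, so none can pass at this size.

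**Figure D3:**
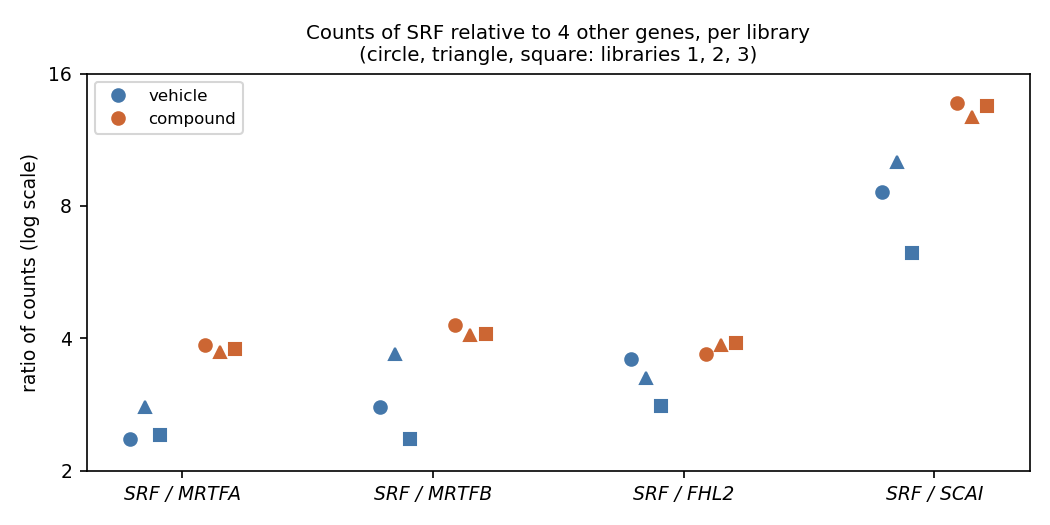
Ratio of SRF counts to the counts of MRTFA, MRTFB, FHL2 and SCAI in each library (vertical axis, log scale), vehicle and compound side by side; symbols mark libraries 1, 2 and 3. The compound libraries lie above the vehicle libraries for every ratio, most closely for FHL2 (3.69 to 3.90 against 2.80 to 3.60). All ratios share the SRF counts.

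Upstream of the MRTFs, a list of 37 genes for cytoskeletal signalling, actin turnover and nuclear transport had 36 tested members, of which 3 rose, none fell and 33 did not pass, where 1.27% of all tested genes were called higher and 0.616% lower. Its median log2 fold change was 0.052, beside -0.0073 over all tested genes. ACTG1 and ACTB, the cytoplasmic actin genes and 2 of the 3 that rose, were 1.298-fold and 1.204-fold higher. They were listed here for the actin that MRTFs bind, and ACTG1 also holds an exact CArG box in its window. The list does not tell if these actin genes lie upstream or downstream of SRF, and this was not tested. ACTG1 was at 3987, 4231 and 3784 CPM in the vehicle libraries and 5307, 5132 and 5144 CPM in the compound libraries (log2 fold change 0.38 ± 0.05, SE, edgeR adjusted p = 0.00194). They are among the most abundant transcripts on the list, at 4001 and 3128 CPM in vehicle, and their counts are uncertain because near-identical pseudogene copies exist. The ACTG1 call held without any single library and that of ACTB was lost without vehicle library 1 or any compound library (adjusted p up to 0.116). FLNA, an actin cross-linker that binds MRTFA, stood at 0.19 ± 0.07 (SE, adjusted p = 0.218). DIAPH1, a formin that nucleates filaments, stood at 0.023 ± 0.06 (SE, adjusted p = 0.885). Without vehicle library 3 the list had 8 genes higher, and without vehicle library 1 it had 1. Over all tested genes 1170 and 73 were higher in these settings, against 198 with every library.

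Among 15 genes for other partners of SRF, 13 were tested, 1 rose, none fell and 12 did not pass, beside 1.27% higher and 0.616% lower over all tested genes. The median log2 fold change was 0.012. The gene that rose was NKX2-5, a homeobox factor known as an SRF partner in heart muscle. It was at 30.1, 33.7 and 29.4 CPM in the vehicle libraries and 45.6, 39.9 and 40.8 CPM in the compound libraries (log2 fold change 0.44 ± 0.08, SE, edgeR adjusted p = 0.0129). That call was lost without vehicle library 1 or any compound library (adjusted p up to 0.134). Without vehicle library 3, 2 genes of the list were higher, where 1170 of all tested genes were, against 198 with every library. The ternary complex factor genes ELK1, ELK3 and ELK4 stood at log2 fold changes of -0.027 ± 0.07, 0.11 ± 0.07 and 0.11 ± 0.08 (SE), and none passed (adjusted p = 0.875, 0.496 and 0.602). ELK3 was slightly higher in every compound library, at 28.2 to 28.9 CPM against 25.9 to 26.8 CPM. It was 1 of 4 among the 13 tested partner genes to be so, where 11.3% of all tested genes were. PIAS1, a SUMO ligase gene, stood at 0.20 ± 0.07 (SE, adjusted p = 0.253).

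Downstream, 30 cytoskeletal and adhesion genes known as MRTF and SRF targets were tested: 6 rose, none fell and 24 did not pass, beside 1.27% higher and 0.616% lower over all tested genes. The median log2 fold change was 0.13. In 15 of the 30 every compound library lay above every vehicle library, where 11.3% of all tested genes did so. This list too was written with earlier results on these data known, so these counts are no independent evidence. LIMA1, an actin-bundling LIM protein gene, went from 107.4, 106.6 and 118.5 CPM in the vehicle libraries to 157.7, 160.0 and 162.4 CPM in the compound libraries (log2 fold change 0.53 ± 0.06, SE, edgeR adjusted p = 0.000373). TPM4, a tropomyosin gene, went from 320.8, 318.0 and 321.6 CPM to 420.9, 413.9 and 415.5 CPM (0.38 ± 0.05, SE, adjusted p = 0.00124). These calls held without any single library, and TPM4 was nearly level within each group. FERMT2, the gene of the integrin activator kindlin-2, rose 1.325-fold, and PDLIM7, a PDZ and LIM protein gene, rose 1.296-fold. ZYX, the gene of the focal adhesion protein zyxin, rose 1.266-fold and WDR1, whose product helps cofilin disassemble filaments, rose 1.171-fold (adjusted p = 0.0489). FERMT2 lost the call without vehicle library 1, and PDLIM7, ZYX and WDR1 lost it without that library or any compound library. WDR1 also lost it in 2 of the 7 alternatives that kept every library (adjusted p up to 0.0802).

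Just outside the threshold among the cytoskeletal targets were VCL, the vinculin gene, at 0.29 ± 0.07 (SE, adjusted p = 0.0518) and FBLIM1, whose product links filamins to adhesions, at 0.29 ± 0.07 (adjusted p = 0.0579). The smooth muscle targets ACTA2, TAGLN, CNN1 and MYL9 were low in these cells, at 0.707 to 2.69 CPM in vehicle. Their log2 fold changes were -0.46 ± 0.30, 0.049 ± 0.26, -0.32 ± 0.36 and -0.41 ± 0.65 (SE). None passed (edgeR adjusted p = 0.523, 0.948, 0.72 and 0.815). Of the 30 cytoskeletal targets, 21 had a log2 fold change above 0. The number of cytoskeletal targets that were higher depended on the libraries: 2 without vehicle library 1, 3 without any single compound library, and 12 higher with 1 lower without vehicle library 3. The calls over all tested genes moved too, from 198 higher and 96 lower with every library. They were 73 higher without vehicle library 1, 85 to 93 higher without a compound library, and 1170 higher with 636 lower without vehicle library 3.

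All 10 of the immediate early genes on the list of targets that SRF shares with ternary complex factors rose, beside 1.27% of all tested genes, with a median log2 fold change of 1.78. This direction was known from earlier results on these data and is no independent evidence. EGR1, a zinc finger factor gene, went from 16.2, 24.5 and 14.1 CPM in the vehicle libraries to 187.8, 188.0 and 193.5 CPM in the compound libraries (3.39 ± 0.18, SE, edgeR adjusted p = 0.000109). The other rises ran from 1.208-fold for MCL1, an anti-apoptotic BCL2 family gene, to 28.4-fold for EGR3. FOS, FOSB, JUNB, EGR2, IER2, NR4A1 and ARC lay between them, and MCL1 was the only gene of the 10 to lose its call when a library was left out (vehicle library 1 or any compound library, adjusted p up to 0.141). The log2 change of SRF itself, 0.59, lay above all 6 cytoskeletal targets that rose and below 9 of the 10 immediate early genes; these differences were not tested.

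**Figure D4:**
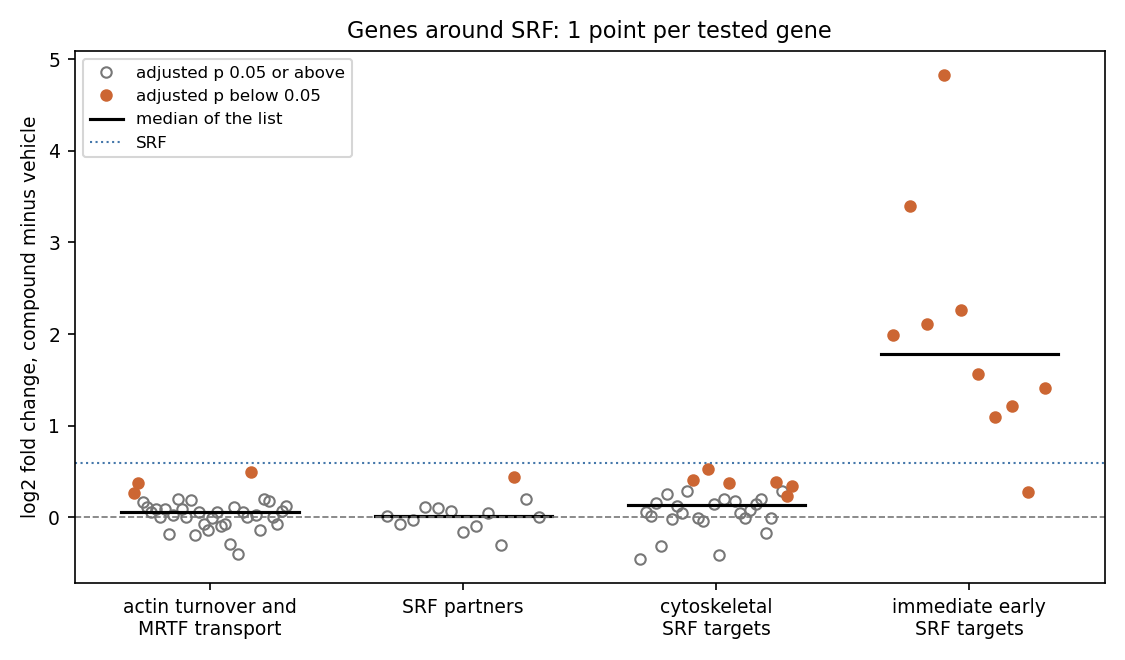
Log2 fold change of each tested gene on the 4 lists (vertical axis), with filled points for genes called higher, open points for the rest, a black line at each list's median and a dotted line at SRF (0.59). The immediate early targets lie at 0.27 to 4.83. The upstream and partner lists centre near 0 (medians 0.052 and 0.012), and the cytoskeletal list somewhat above it (median 0.13).

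Exact CArG boxes in the windows before the start were present in 6 of the 28 cytoskeletal targets with a window (21.4%), 4 of the 32 upstream genes (12.5%), 2 of the 12 partner genes (16.7%) and 2 of the 7 immediate early genes (28.6%), where 1.44% of all genes with a window hold one. Of the genes that rose, TPM4, ACTG1, EGR1 and EGR2 hold one. Many known SRF sites lie outside such short windows, and the lists were written from known targets, so the shares describe the lists only.

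ATF3, SPRY2, BCL10 and NAB2 were 4 of the 5 genes whose profile lay nearest to that of SRF over the 6 libraries, out of 9391 tested genes with a mean of at least 10 CPM. The measure was the root-mean-square distance between log2 CPM values centred on each gene's mean, which was 0.0498 for ATF3, a stress-responsive bZIP factor gene, and 0.0656 for NAB2, a corepressor of EGR factors. These genes rose 1.495-fold (ATF3), 1.575-fold (SPRY2), 1.39-fold (BCL10) and 1.492-fold (NAB2), and they were picked for that likeness, so no test is given.

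Totals ran from 19126039 to 28880374 counts per library. Vehicle libraries varied more than compound libraries, with a median coefficient of variation over tested genes of 10.1% against 5.13%. For SRF these values were 6.88% and 0.734%, for MRTFB 16.3% and 3.02% and for SCAI 17.7% and 3.59%. The 294 called genes (1.89% of those tested) became 1170 higher and 636 lower without vehicle library 3, and 73 higher and 20 lower without vehicle library 1. Of 7 markers known from HEK293 cells, VIM, KRT8, KRT18 and NEFL stood above 10 CPM and PAX2, INA and NEFM below it. The sum of the 7 was 2073 to 2384 CPM in vehicle and 2128 to 2204 CPM with the compound. NEFM differed sharply between libraries, at 4.10, 6.58 and 0.369 CPM in vehicle libraries 1, 2 and 3. In compound libraries 1, 2 and 3 it was at 0.140, 3.74 and 3.80 CPM, and the cause was not tested. The leukocyte genes PTPRC, CD3E and LYZ had at most 3 counts in every library.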

How the data were processed

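Per the labels' protocols, RNeasy Plus columns gave the total RNA and NEBNext Ultra II reagents the libraries. The authors deposited raw counts of reads for each Ensembl identifier, in 1 file per library. HISAT2 2.2.1, HTSeq 0.9.1 and hg38 are named in the submitters' processing notes. The strand setting and the annotation release were not given in the sources used here.

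Symbols were matched to 60357 of 60676 identifiers. Coordinates (1-based) and exon lengths came from GENCODE 29 on the same build. Genes passing filterByExpr were scaled by TMM (R 4.3.3), and the quasi-likelihood test of edgeR 4.0.16 compared 3 compound with 3 vehicle libraries, without covariates. The steps were tested on simulated counts with the same spread in both groups, which does not cover the unequal spread of these libraries. Standard errors were taken as the log2 fold change over the root of its F statistic. Alternatives were DESeq2 1.42.0, its size factors, library size alone, other count filters, limma-voom (limma 3.58.1), a replicate block and leaving out each library. The 6 genes and all lists were chosen with earlier results of these data known. Named genes are the 6, every list member that changed, up to 4 per list by smallest p, and the 5 profile neighbours. DIAPH1, ELK1, ELK4, FHL1, FHL5, VCL, FBLIM1, ACTA2, TAGLN, CNN1, MYL9 and ACTA1 were named after their values were seen. Of the genes so chosen, 1 upstream gene that rose and 1 of the 5 neighbours are not reported here.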

Additional observations from a re-analysis of the deposited data

How the results depend on the processing

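SRF rose under all 13 alternatives, with adjusted p up to 0.00631. FHL2 kept its direction in all 13 and its call in the 7 that kept every library. The sign of MRTFA, MRTFB and SCAI was not fixed: MRTFA stood at 0.00625 without a count filter, and with 1 library left out the log2 fold changes ran from -0.0457 to 0.0658 for MRTFA, -0.0716 to 0.141 for MRTFB and -0.249 to 0.00642 for SCAI, none past the threshold. That of SRF ran from 0.529 to 0.622. Leaving out 1 library gave 1 to 8 upstream genes higher, 0 to 2 partner genes higher, 2 to 12 cytoskeletal targets higher and 0 to 1 lower, 9 to 10 immediate early targets higher, and 73 to 1170 genes higher and 20 to 636 lower in all. Without a count filter 508 genes were higher and 205 lower. The cause was not tested. The SRF ratios kept their direction without any single library, by 0.549 to 0.668 (log2) to MRTFA, 0.372 to 0.693 to MRTFB, 0.157 to 0.337 to FHL2 and 0.517 to 0.86 to SCAI.

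Replicate numbers are shared between the groups, but the pairing was not borne out: deviations of same-numbered libraries correlated at -0.07, 0.0276 and -0.0139 over 15577 genes, and vehicle libraries 1 and 3 correlated best with another number. With the replicate block 232 genes were higher and 107 lower, SRF stood at 0.59 (adjusted p = 3.77e-05) and FHL2 at 0.336 (0.0307). Among the 6 genes MYOCD alone had too few counts to test, and the cause was not tested.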

Other observations

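ACTA1, the skeletal muscle actin gene and a classical SRF target, was low but higher in every compound library. The same held for 11.3% of all tested genes. ACTA1 had 8, 6 and 8 counts in the vehicle libraries and 15, 25 and 26 in the compound libraries. It had means of 0.329 ± 0.0432 CPM in vehicle and 0.864 ± 0.294 CPM with the compound (SD, n = 3 each). Its log2 fold change was 1.38 ± 0.39 (SE) and did not pass (edgeR adjusted p = 0.118).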
